A study of Mus musculus with 4 samples.

Results

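Elastic fibre and microfibril genes were followed in cultured mouse lung fibroblasts of a mutant and a wild-type line. The set was a list of 10 genes, picked for what they encode: Eln, Fbn1, Fbn2, Ltbp1, Ltbp2, Ltbp3, Ltbp4, Mfap2, Mfap4 and Mfap5. A gene was taken from the array where the platform annotation gave a row exactly 1 symbol. This left 9 of the 10 genes, out of 19938 genes in all, each with 1 row, and Fbn1 was not analysed here. RNA came from primary fibroblasts that grew out of collagenase-digested lungs of mice 3 to 4 weeks old and were kept untreated in medium with serum. The 2 samples of line MLF- 493, A and B, carried a mutant allele and are called mutant here, and the 2 samples of line MLF- 494, A and B, were wild type (WT). Since each genotype is represented by 1 line, the effects of genotype and of line cannot be told apart. What drives the allele is not given in the sources used here. Separate cultures for A and B are not mentioned in the labels, and the p-values measure only the spread between these samples, which may be technical.

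Elastic fibres give the lung its recoil. They have a core of crosslinked elastin on a scaffold of microfibrils, which are polymers of fibrillins decorated with microfibril-associated glycoproteins and latent TGF-beta binding proteins (LTBPs). LTBPs also, with exceptions, hold TGF-beta in a latent complex in the matrix, from which integrins and proteases can release it. In the young lung these fibres are made largely by myofibroblasts in the walls between air spaces.

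Values are the deposited log2 expression values of the arrays, on which a difference of 1 is a 2-fold change, and every difference below is mutant minus WT. The deposited columns of the groups lay apart, since mutant A and B had column medians of 6.24 and 6.26 and WT A and B of 5.90 and 5.91. The median difference of all genes was 0.26. After quantile normalization, which gives the columns 1 distribution, it was -0.00 (-0.004), after cyclic loess -0.01 (-0.006) and after centring the columns -0.09 (-0.085). A gene is therefore said to have risen or fallen only where limma called it in the same direction on the deposited and on the quantile-normalized values, at a Benjamini-Hochberg adjusted p under 0.05 over all genes. Across genes, which are not independent replicates, Pearson's r was 0.997 to 0.998 within groups and 0.972 to 0.974 between them. All 9 genes had group means above the dim level of 5.15, the 95th percentile of olfactory and vomeronasal receptor rows.

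The elastic fibre genes did not move together. The microfibril-associated genes Mfap2 and Mfap4, the LTBP gene Ltbp4 and elastin were higher in mutant, Ltbp2 and the fibrillin gene Fbn2 were lower, and Mfap5 and Ltbp1 were not called. Of the 9 genes, 5 rose, against 22.4% of all genes, and 2 fell, against 11.5% of all genes, the fifth rise being the small one of Ltbp3. On the deposited values alone the counts were the same, 5 higher and 2 lower, against 50.1% and 11.9% of all genes, and after quantile normalization again 5 and 2, against 22.5% and 24.4%. With centred columns the split moved to 4 higher and 4 lower, against 17.9% and 33.4% of all genes. Mfap2 and Mfap4 rose at least 2-fold on both scalings, as 1.23% of all genes did, and Ltbp2 fell at least 2-fold on both, as 1.28% did. The median difference of the 9 genes was 0.23 (0.225) as deposited and 0.25 (0.245) when quantile-normalized. Leaving out either WT sample left limma with 0 called genes of any kind, although 9846 and 10022 had an unadjusted p under 0.05, 6 of the 9 genes among them each time. The smallest adjusted p of any gene was then 0.0552 and 0.053, and Ltbp2, Mfap2, Mfap4, Ltbp4 and Eln stood at those values. The calls for these genes, like those for every other gene, therefore need both WT samples, so this limit is not particular to them. Over the 4 ways of leaving out 1 sample the differences ran from -2.45 to -2.23 for Ltbp2, from 1.95 to 2.23 for Mfap2, from 1.46 to 1.67 for Mfap4, from 1.02 to 1.14 for Ltbp4 and from 0.61 to 0.74 for Eln. An exact permutation test of 2 against 2 samples cannot go below p = 0.333, two-sided, and was not used.

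**Figure D1:**
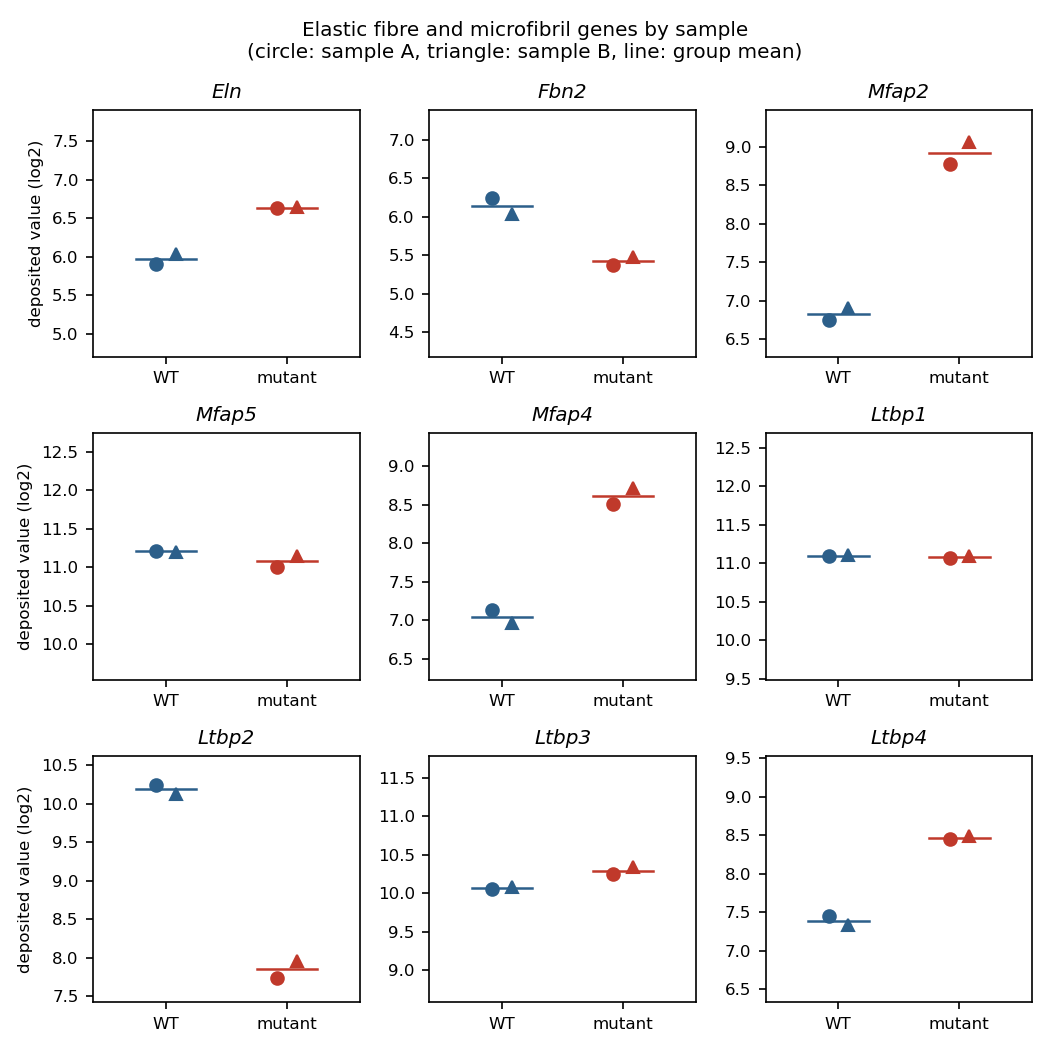
Deposited log2 values of the 9 measured genes, 1 panel a gene, with WT left and mutant right. Circles are samples A, triangles samples B and lines group means, and every panel spans the same range of log2 values, so that the steps in Ltbp2 and Mfap2 can be compared with the nearly flat Ltbp1 and Mfap5.

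Eln encodes tropoelastin, the monomer of elastin. It measured 6.63 and 6.65 in mutant A and B, and 5.90 and 6.03 in WT A and B. The samples did not overlap, and both mutant values lay at least 0.60 above the WT values. The difference was 0.68 ± 0.08 (the ± here and below is limma's moderated SE, n = 2 per group, adjusted p = 0.00164). After quantile normalization it was 0.34 (adjusted p = 0.0131). Genes of like mean, within 0.5 of that of Eln, had a median deposited difference of 0.34. Eln lost its call with mutant A left out (0.69 (0.685), adjusted p = 0.0531) and with mutant B left out (0.67 (0.665), adjusted p = 0.0582).

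Fbn2 encodes fibrillin-2, the fibrillin best known from developing tissues. Its values were 5.37 and 5.48 in mutant A and B and 6.25 and 6.04 in WT A and B, so the mutant samples lay at the lower end without overlap. Fbn2 fell by 0.72 ± 0.10 on the log2 scale (adjusted p = 0.00263), whereas genes of like mean stood at a median of 0.38. Relative to them the fall was larger, and it came to -1.08 after quantile normalization (adjusted p = 0.000414) and -1.11 after cyclic loess. Elastin and this fibrillin thus moved in opposite directions on all 4 scalings. The call was lost at -0.67 (-0.665, adjusted p = 0.0805) without mutant A and at -0.78 (-0.775, adjusted p = 0.0728) without mutant B, and the adjusted p was 0.0589 and 0.053 without WT A and WT B.

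**Figure D2:**
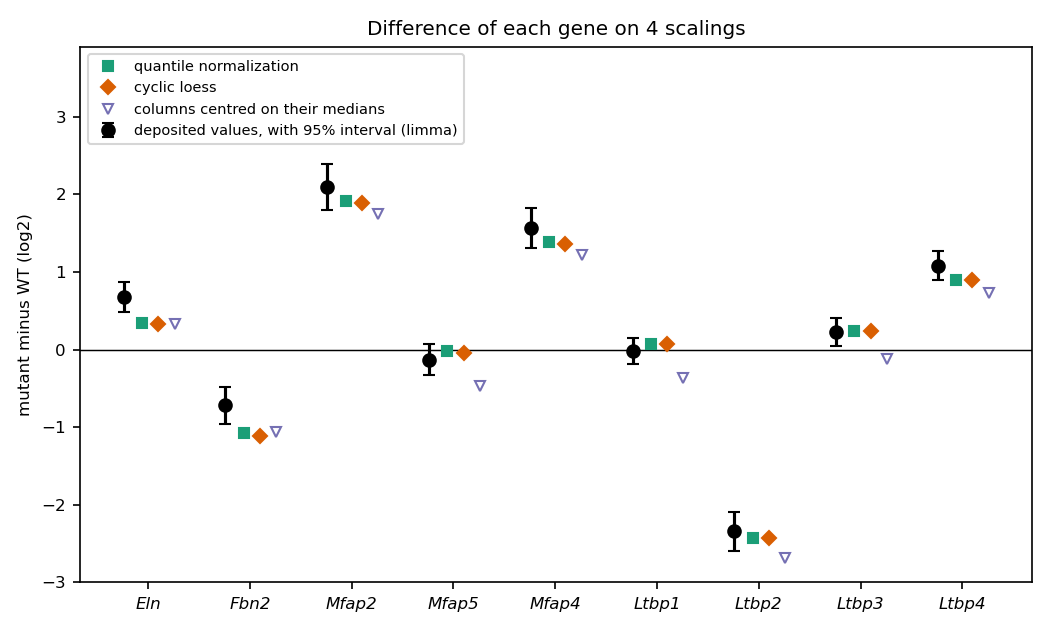
Mutant minus WT (log2) of the 9 genes on the deposited values (black, with limma's 95% interval), after quantile normalization, after cyclic loess and with columns centred on their medians. Mfap2, Mfap4, Ltbp4 and Eln lie above 0 and Ltbp2 and Fbn2 below 0 on all 4 scalings, while Ltbp3 and Ltbp1 lie on both sides.

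Mfap2 and Mfap5 encode the small microfibril-associated glycoproteins, which bind fibrillin. Mfap2 measured 8.78 and 9.06 in mutant A and B, against 6.75 and 6.91 in WT A and B. The lowest mutant value was 1.87 above the highest WT value. Mfap2 rose by 2.09 ± 0.12, or 4.26-fold (adjusted p = 0.00044), which placed it at rank 44 of all genes ordered by deposited rise. The rise was 1.91 after quantile normalization (adjusted p = 0.000125) and ran from 1.75 (1.745) to 2.23 over the 12 alternatives.

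Mfap5, the partner of Mfap2 in this small family, did not follow it. Its mutant values, 11 and 11.15, and its WT values, 11.21 and 11.20, lay within a narrow band, with a gap of 0.05 between the groups. The difference was -0.13 ± 0.08, with a 95% interval of -0.33 to 0.07 (adjusted p = 0.2), far from that of Mfap2, 1.79 to 2.39. Genes of like mean stood at a median of -0.12. After quantile normalization it was -0.02 (adjusted p = 0.864), and only centring the columns gave a call, at -0.48 (-0.475, adjusted p = 0.00376).

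Mfap4 is not related to this pair in sequence. It encodes a fibrinogen-domain protein that binds elastin and microfibrils and is abundant in lung. Its values were 8.51 and 8.72 in mutant A and B and 7.13 and 6.97 in WT A and B. Both mutant samples lay at least 1.38 above the WT samples. The rise of 1.57 ± 0.10, or 2.96-fold (adjusted p = 0.000593), ranked 117 among all genes and was 1.38 after quantile normalization (adjusted p = 0.000283). Over the 12 alternatives it ran from 1.22 to 1.67.

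The 4 LTBP genes did not share a direction. LTBP1 and LTBP3 are the carriers that hold latent TGF-beta in a covalent complex. LTBP4 does so weakly and promotes elastin assembly together with fibulin-5, and mice without it have enlarged air spaces. LTBP2 binds fibrillin but not latent TGF-beta.

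Ltbp2 changed most among the 9 genes. It measured 7.74 and 7.96 in mutant A and B and 10.25 and 10.13 in WT A and B. All mutant values lay at least 2.17 below the WT values. Ltbp2 fell by 2.34 ± 0.10, a 5.06-fold lower level (adjusted p = 0.000254), which placed it at rank 26 of all genes ordered by deposited fall. Genes of like mean stood at 0.09 (0.085). Quantile normalization gave -2.42 (adjusted p = 3.78e-05), and the 12 alternatives ran from -2.69 (-2.685) to -2.23.

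Ltbp4 measured 8.45 and 8.49 in mutant A and B and 7.45 and 7.33 in WT A and B, again without overlap. It rose by 1.08 ± 0.08 (2.11-fold, adjusted p = 0.000649), or by 0.90 after quantile normalization (adjusted p = 0.000429), against a median of 0.19 (0.185) among genes of like mean. Centring gave its lowest value, 0.74 (0.735).

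Ltbp3 lay at 10.25 and 10.34 in mutant and 10.06 and 10.08 in WT, a gap of 0.17 between the groups. Its difference of 0.23 (0.225) ± 0.07 passed narrowly on the deposited values (adjusted p = 0.0371) and after quantile normalization (adjusted p = 0.0417). It turned to -0.12 (adjusted p = 0.213) with centred columns. Ltbp3 also lost its call with each sample left out in turn, at adjusted p between 0.0548 and 0.143 and values of 0.18 to 0.27, so its rise is the least certain of the 5.

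Ltbp1 was level. It measured 11.07 and 11.09 in mutant and 11.09 and 11.11 in WT, and the groups met at 11.09. The difference of -0.02 ± 0.07 had a 95% interval of -0.18 to 0.14 (adjusted p = 0.802) and was 0.07 after quantile normalization (adjusted p = 0.426) and 0.07 after cyclic loess. Centring the columns gave -0.37 (-0.365, adjusted p = 0.00644). The intervals of Ltbp2 (-2.59 to -2.09), Ltbp1 and Ltbp4 (0.89 to 1.27) did not overlap.

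**Figure D3:**
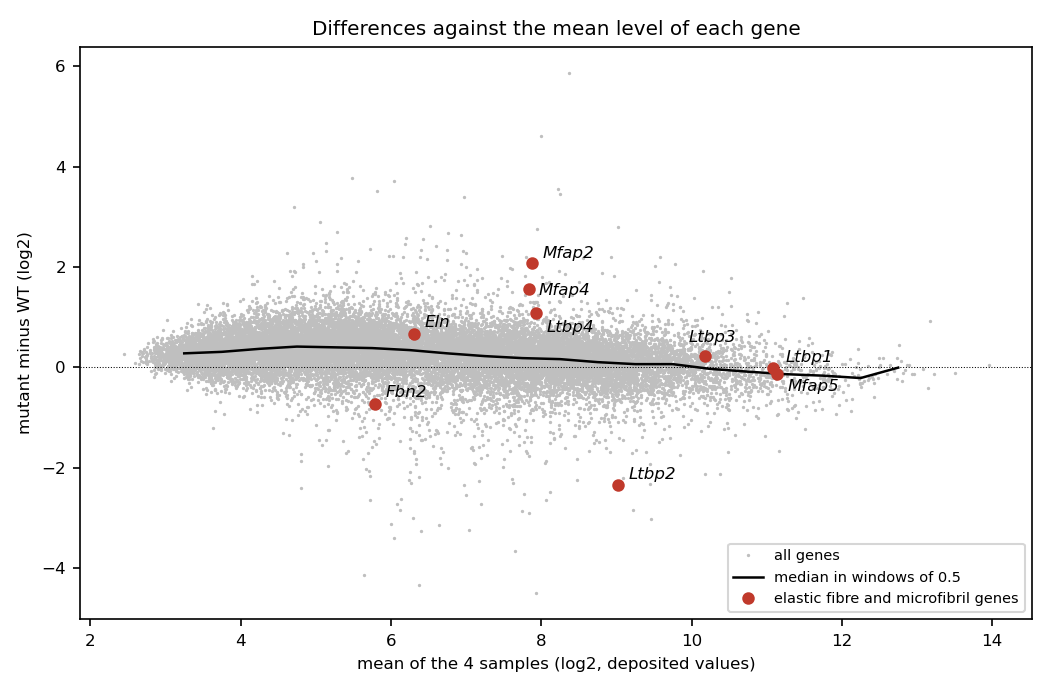
Mutant minus WT (log2) of every gene against its mean over the 4 samples, with the median in windows of 0.5 as a line and the 9 genes in red. The line runs above 0 for dim genes and below it for bright ones, and Mfap2, Mfap4, Ltbp4, Fbn2 and Ltbp2 lie away from it, while Mfap5, Ltbp1 and Ltbp3 lie near it.

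RefSeq promoters, 250 bases before to 50 after a gene's start on build GRCm38.p6, were available for 5 of the 9 genes, with 9 windows in all. The windows of the strongest fall and of the rises with an entry that were at least 2-fold on the deposited values are shown. For Ltbp4 the rise was only 0.90 on the log2 scale after quantile normalization. Genes that moved in opposite directions can so be compared, each window from 5′ to 3′ on the gene's strand. Capitals mark GC boxes (GGGCGG on either strand). Ltbp2 lies at chr12:84876442-84876741 on the minus strand, Mfap2 at chr4:141010431-141010730 on the plus strand, and Ltbp4 at chr7:27337563-27337862 on the minus strand.
Ltbp2: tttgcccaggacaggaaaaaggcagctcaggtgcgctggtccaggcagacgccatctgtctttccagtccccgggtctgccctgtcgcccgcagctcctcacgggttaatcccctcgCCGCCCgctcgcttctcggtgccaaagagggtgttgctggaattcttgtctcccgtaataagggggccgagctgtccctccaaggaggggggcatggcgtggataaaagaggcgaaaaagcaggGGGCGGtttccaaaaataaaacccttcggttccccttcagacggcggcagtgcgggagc
Mfap2: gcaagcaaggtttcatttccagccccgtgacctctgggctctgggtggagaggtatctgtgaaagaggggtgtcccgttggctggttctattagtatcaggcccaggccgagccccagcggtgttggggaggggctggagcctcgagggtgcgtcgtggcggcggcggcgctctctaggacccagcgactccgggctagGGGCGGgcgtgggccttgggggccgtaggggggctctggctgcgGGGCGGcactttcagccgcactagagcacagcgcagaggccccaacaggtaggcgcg
Ltbp4: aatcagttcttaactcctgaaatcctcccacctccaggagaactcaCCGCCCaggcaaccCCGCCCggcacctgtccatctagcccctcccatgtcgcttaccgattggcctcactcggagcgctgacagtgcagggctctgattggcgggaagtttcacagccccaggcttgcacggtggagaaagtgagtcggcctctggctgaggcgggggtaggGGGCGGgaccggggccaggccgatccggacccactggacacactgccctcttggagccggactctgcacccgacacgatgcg

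All 3 windows shown, of the falling Ltbp2 and the rising Mfap2 and Ltbp4, shared this feature. Ltbp2 and Mfap2 had 2 GC boxes each and Ltbp4 had 3, and 35.7% of all 32851 promoter windows held at least 1. The GC content was 61.0% in Ltbp2, 68.0% in Mfap2 and 64.3% in Ltbp4, against a median of 52.7% over all windows. None of the 3 windows held the TATA box TATAAA (13.6% of all windows), the AP-1 motif TGANTCA (7.81%), the ETS core CCGGAA (14.9%), the TEAD motif GGAATG (14.7%), the E-box CACGTG (7.15%) or a CArG box (1.63%). The short SMAD element CAGAC occurred 3 times in the Ltbp2 window and not in those shown of Mfap2 and Ltbp4. It was in 49.6% of all windows. Both strands were searched, no motif hit overlapped another kind in these 3 windows, and SMAD elements are not in capitals. Ltbp4 has other windows, at another pair of nearby starts, with 7 and 9 GC boxes. These windows (chr7:27333599-27333898 and chr7:27333614-27333913) overlap, so the 7 boxes of the first are counted again among the 9 of the second. Another Mfap2 window held 1 TEAD motif, 1 SMAD element and no GC box. Among the genes that moved little, the first Ltbp1 window held 1 ETS core, and the Ltbp3 window held the AP-1 motif TGAGTCA across the start. The first and second Ltbp1 windows held 1 and 2 SMAD elements and the Ltbp3 window 2, and these windows held no GC box. A match is a description of the letters and not a measured site.

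Of 36 protein-coding neighbours of the 9 genes, 2 on either side by RefSeq gene order, 33 were measured. Of these, 8 rose (24.2%, against 22.4% of all genes), 3 fell (9.09%, against 11.5%) and the remaining 22 lacked a call on both scalings, shares near those of all genes. Beside Mfap2, which rose, Atp13a2 rose by 0.65 (0.645) and Crocc by 0.72, and beside Ltbp4 Numbl rose by 0.32 and Sptbn4 by 0.66. Beside Ltbp2, which fell, Isca2 rose by 0.64. The 3 measured neighbours of Mfap5, which was not called, rose (Phc1 by 0.75, Rimklb by 1.00 (0.995) and Apobec1 by 0.60), and all 3 falls were beside Ltbp1, also not called, where Rasgrp3 fell by 1.09 (-1.085), Fam98a by 0.98 and Ttc27 by 0.54 (-0.535). No measured neighbour of Eln, Fbn2, Ltbp3 or Mfap4 was called in the same direction on both scalings. The neighbours named here were picked with their values known.

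In 5 further lists of the elastic fibre pathway, covering 68 genes of which 64 were measured, 19 genes rose (29.7%, against 22.4% of all genes) and 11 fell (17.2%, against 11.5%), while 34 lacked a call on both scalings. Calls in both directions are thus also what genes at large gave, and the counts per list below are descriptions to be read against these shares. On the deposited values alone 27 of the 64 were higher and 15 lower (50.1% and 11.9% of all genes). After quantile normalization the counts were 20 and 15 (22.5% and 24.4% of all genes). With centred columns they were 9 and 28 (17.9% and 33.4% of all genes). The median difference of these 64 genes was 0.15 as deposited, against 0.26 for all genes, and 0.04 when quantile-normalized, against -0.00 (-0.004). As for the 9 genes, 0 of the 64 were called by limma with either WT sample left out.

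Among 19 elastic fibre assembly proteins, 6 rose (31.6%, against 22.4% of all genes) and 3 fell (15.8%, against 11.5%), and the 3 falls were fibulins. Fbln7 fell by 1.42 ± 0.10 (5.62 and 5.86 in mutant, 7.11 and 7.21 in WT, adjusted p = 0.000682). Fbln5, which links tropoelastin to microfibrils and to cells, fell by 0.76 (-0.755) ± 0.07, with 11.56 and 11.60 in mutant and 12.35 and 12.32 in WT (adjusted p = 0.000952). Fbln2 fell by 0.65, while Fbln1, another fibulin of elastic fibres, rose by 0.74. Emilin3, of the elastin microfibril interface family, rose by 0.85 ± 0.16 (adjusted p = 0.00756), and Adamts6 and Adamts10, metalloproteases tied to fibrillin microfibrils, rose by 0.80 and 0.60 (0.595). Emilin1 differed by 0.14 ± 0.09 (adjusted p = 0.202).

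Of 5 genes for elastin crosslinking, 1 fell and 1 rose, too few to read against the 11.5% and 22.4% of all genes. Lox, the lysyl oxidase that crosslinks elastin and collagen, measured 10.63 and 10.69 in mutant and 11.64 and 11.59 in WT and fell by 0.96 (-0.955) ± 0.07 (adjusted p = 0.000682). Loxl1, the oxidase most closely tied to elastin, stood at 0.15 ± 0.08 (adjusted p = 0.143). Atp7a, which delivers copper to these enzymes, rose by 0.45, or 0.37 after quantile normalization, and was not called with centred columns (adjusted p = 0.259). The Eln transcript was thus higher, and those of Lox and Fbln5 lower, in the same samples.

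Of 18 elastin-degrading proteases and inhibitors, 5 rose (27.8%, against 22.4% of all genes) and 4 fell (22.2%, against 11.5%). Mmp2, a gelatinase that also cuts elastin, rose by 1.07 (1.065) ± 0.08 (11.19 and 11.36 in mutant, 10.20 and 10.22 in WT, adjusted p = 0.000781). Timp1, an inhibitor of such enzymes, fell by 1.13 (-1.125) ± 0.07 (8.75 and 8.83 in mutant, 9.89 and 9.94 in WT, adjusted p = 0.000542). Mmp12, the macrophage elastase, was called higher (5.15 and 5.33 in mutant, 4.56 and 4.43 in WT, adjusted p = 0.00218), with a WT mean below the dim level, so that no size is given. The cathepsin gene Ctsk rose by 0.73, and Mmp3 and the elastase gene Cela1 fell by 0.83 and 0.73 (-0.725).

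Of 16 genes around latent TGF-beta, the cargo of the LTBPs, 7 rose (43.8%, against 22.4% of all genes) and 1 fell (6.25%, against 11.5%). With centred columns 2 of the 16 were higher and 5 lower, against 17.9% and 33.4% of all genes. The widest change was in Itgb8, the integrin chain that with Itgav releases TGF-beta from its latent form. It measured 7.07 and 6.98 in mutant and 5.07 and 5.42 in WT, a rise of 1.78 ± 0.13 (adjusted p = 0.000682). The WT mean of Itgb8, 5.25 (5.245), lay just above the dim level of 5.15 and its WT A value below it, so this size is uncertain. Itgav rose by 0.50 (0.495). Nrros, which anchors latent TGF-beta on cell surfaces, was called higher (5.25 and 5.45 in mutant, 4.09 and 4.23 in WT, adjusted p = 0.000859), but its WT mean of 4.16 lay below the dim level, so the size of the change is not given. Tgfb1 rose by 0.50 (0.495) ± 0.08, Tgfb2 fell by 0.43 ± 0.07, and Tgfb3, at 0.24, was called on the deposited values only. With centred columns Itgav (adjusted p = 0.125) and Tgfb1 (adjusted p = 0.147) were not called. Of 10 integrins and other receptors of elastic fibres, 1 rose and 2 fell, counts too small to set apart from the 22.4% and 11.5% of all genes. The rise was that of Itgav, and the falls were Itga9 (-0.64) and the syndecan gene Sdc4 (-0.43).

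**Figure D4:**
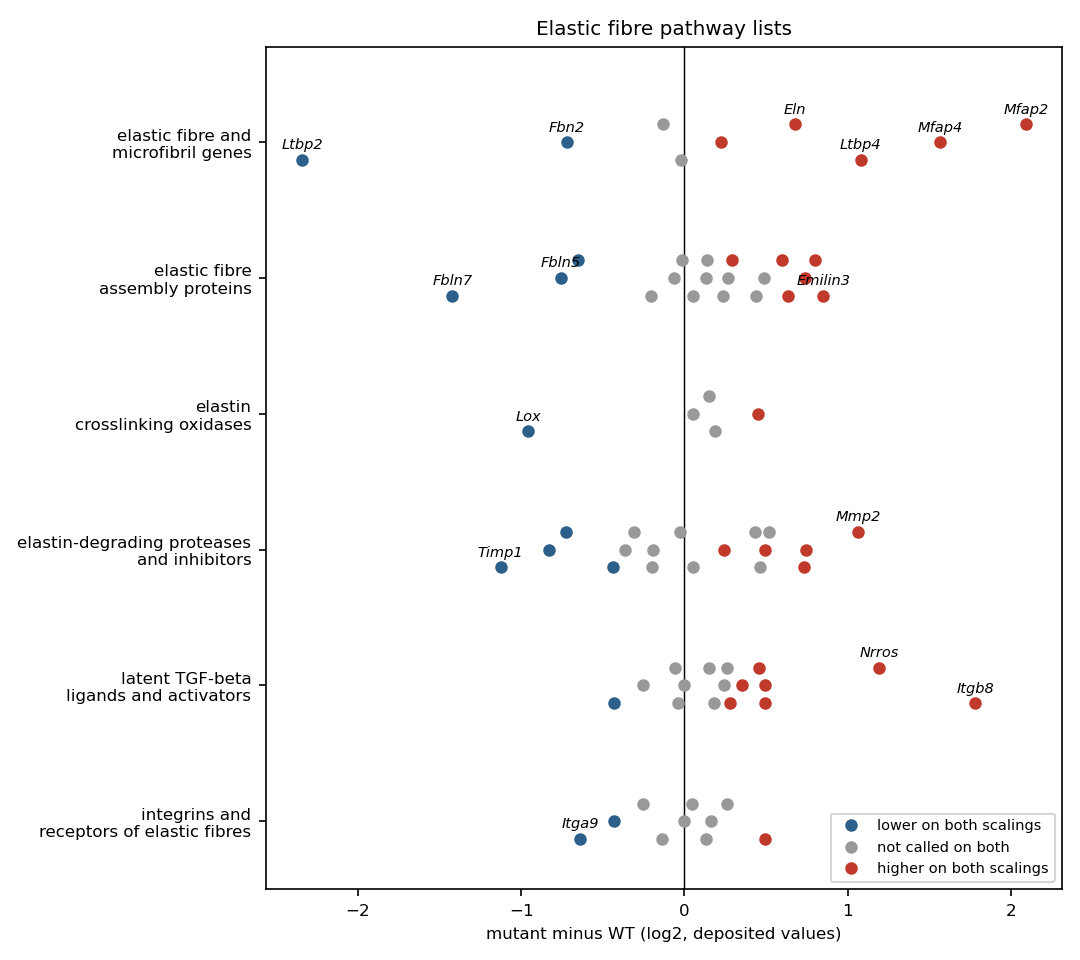
Mutant minus WT (log2, deposited values) of every measured gene of the elastic fibre set and of the 5 further pathway lists, 1 point a gene, red where called higher and blue where called lower on the deposited and the quantile-normalized values. Ltbp2 and Mfap2 span a wider range than any further list.

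Of 10 smooth muscle and myofibroblast markers, 7 fell, against 11.5% of all genes, and 0 rose, against 22.4%. Des (0.53 (0.525)), Lmod1 (-0.13 (-0.125)) and Smtn (0.07) lacked a call on both scalings. The list had a mean level of 7.31 and 7.29 in mutant A and B and 8.29 and 8.30 in WT A and B. Acta2, the myofibroblast actin, fell by 1.67 ± 0.09 (adjusted p = 0.000439). Of 12 fibroblast markers, 6 fell (50%, against 11.5% of all genes) and 1 (Pdgfra, by 0.26) rose (8.33%, against 22.4%). The other 5 lacked a call on both scalings. Mean levels of the fibroblast list were 9.79 and 9.78 against 10.25 and 10.21. The part of these markers in the differences of the 9 genes was not tested, and in bulk RNA fewer cells of a type and less RNA per cell cannot be told apart. Mean levels of the epithelial list were 5.47 and 5.57 against 5.05 and 5.07, those of the endothelial list 5.24 and 5.28 against 4.996 and 4.90, and those of the leukocyte list 4.95 and 5.02 against 4.78 and 4.79. For these lists 2 of 12, 0 of 9 and 2 of 8 genes rose (22.4% of all genes), and 0, 0 and 2 fell (11.5% of all genes). Such counts are too small to set apart from those shares. The defining markers Epcam (4.67 to 4.82), Pecam1 (4.58 to 5.03) and Ptprc (4.04 to 4.29) lay below the dim level in all 4 samples, but 6 of 12 epithelial, 3 of 9 endothelial and 2 of 8 leukocyte markers had means above it in both groups. Among these were Krt8 (6.13 to 6.78), Ager (6.20 to 6.88), Vwf (5.86 to 6.19) and Cd68 (5.73 to 6.74). The epithelial rises were Sftpb (5.80 and 6.10 in mutant, 5.25 in both WT samples) and Sftpc (5.30 and 5.23 against 4.39 and 4.30). The WT mean of Sftpc lay below the dim level and its mutant mean only just above it. The leukocyte falls were Lyz2 (4.56 and 4.70 in mutant, 6.01 and 6.20 in WT) and Csf1r (4.93 and 5.03 against 5.46 and 5.36). Their WT means exceeded the dim level and their mutant means did not reach it. The leukocyte rises were Adgre1 (4.14 and 4.24 against 3.64 and 3.49) and Cd79a (4.38 and 4.42 against 3.38 in both WT samples). No sample of Adgre1 or Cd79a reached that level. Deposited levels of these lists carry the shift of all genes, and their median differences went from 0.48 to 0.13 (0.126) for the epithelial, from 0.32 to -0.04 (-0.044) for the endothelial, from 0.46 (0.455) to 0.10 (0.096) for the leukocyte, from 0.27 (0.265) to -0.15 (-0.145) for the mesothelial and from 0.49 to 0.10 (0.104) for the pericyte list after quantile normalization. Mesothelial and pericyte markers gave 0 of 5 and 2 of 6 rises (22.4% of all genes) and 0 falls (11.5% of all genes). Their mean levels were 5.69 and 5.80 against 5.59 and 5.60, and 5.74 (5.735) and 5.84 against 5.37 and 5.31. Mgp, a mineralization inhibitor that is found on elastic fibres, fell by 4.50 ± 0.07 (5.70 and 5.65 in mutant, 10.15 and 10.20 in WT, adjusted p = 5.08e-05).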

How the data were processed

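RNA of 4 samples, 2 mutant and 2 WT, was measured on Affymetrix mouse arrays with biotin label. The deposited values are log2 expression values rounded to 2 decimals, from 2.28 to 14.95, a scale read from the values themselves. Per the submitters' processing notes the authors used the Transcriptome Analysis Console. No version, background correction or normalization is given in the sources used here. Of 28944 rows, 21789 had 1 symbol, 1621 several and 5534 none in the platform annotation. Symbols were updated through 21698 rows matched to the RefSeq table of GRCm38.p6, used for names, chromosomes and gene order. For 999 genes with several rows the row of highest mean was kept. limma 3.58.1 in R 4.3.3 (lmFit, eBayes, group as the only term) was fitted to all 19938 genes, two-sided, with 2 residual degrees of freedom. The number of arrays limits the precision.

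The allele of the mutant line is not reported here. The members, lists and tests were chosen with earlier results of these data known. Named were all members, genes of each further list called on both scalings with a difference of at least 1 (where fewer than 2, the 2 called genes with the largest differences) and a fixed set of Lox, Loxl1, Fbln5, Efemp2, Emilin1, Tgfb1, Tgfb2, Tgfb3, Mgp and Acta2. Efemp2 was not analysed here. Any other gene named was picked with its values known. Alternatives covered the letters A and B as a block, 3 other scalings (quantile, cyclic loess, median centring), leaving out dim genes, a trended and a robust eBayes, averaging rows, a 2-fold minimum and each sample left out. Plots used Python 3.11.15, pandas 2.3.3 and matplotlib 3.10.9.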

Additional observations from a re-analysis of the deposited data

How the results depend on the processing

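Over 12 alternatives, Eln, Fbn2, Ltbp2, Ltbp4, Mfap2, Mfap4 and Mfap5 kept the direction of their difference. For most alternatives this was fixed in advance. The block, the dim filter, the trended and robust eBayes and averaging rows left each member's difference unchanged. Leaving out a sample cannot turn it where the groups do not overlap, as in these genes. Only the 3 other scalings could have turned it. Ltbp1 reversed to 0.07 (0.074) after quantile normalization and 0.07 (0.067) after cyclic loess, and Ltbp3 to -0.12 with centred columns. Their cause was not tested. Without 1 sample, members called higher or lower fell to between 0 and 3 and between 0 and 1, on 1 scaling and on both. Over all genes the calls ran from 0 to 4623 higher and 0 to 1160 lower on the deposited values, and from 0 to 1762 and 0 to 1086 on both scalings. In the 5 pathway lists they ran from 0 to 16 higher and 0 to 10 lower, and from 0 to 7 each on both scalings. Such fits have 1 residual degree of freedom and assume that the lone sample varies like the other group. Quantile normalization gave 4485 genes higher and 4861 lower, cyclic loess 4533 and 4933, and centring 3574 and 6657, against 9991 and 2381 on the deposited values. The higher share of calls was 80.8% deposited, 48.0% quantile, 47.9% loess and 34.9% centred. With centred columns 4 members were lower, and 9 and 28 genes of the pathway lists were higher and lower. On that scaling 17.9% of all genes were higher and 33.4% lower. The added 2-fold size left 728 genes higher and 257 lower (246 and 255 on both scalings), 3 and 1 members (2 and 1), and 3 and 2 pathway genes (2 and 2). The titles give both groups the letters A and B, but the differences of A and B correlated at only 0.01 (0.013) between groups across genes, so the letters are not taken to pair samples. With the replicate block 10260 genes were called, the difference of Ltbp3 stayed at 0.23 (0.225) with adjusted p = 0.0598, and no other member's call changed. Arrays give no read depth, and levels below the dim level of 5.15 cannot be told from background.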
